A study of Mus musculus with 2 samples.

Results

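Gluconeogenesis is the route by which liver makes glucose from lactate, amino acids and glycerol during fasting. This account covers 8 of its genes. They are Pcx, Pck1, Pck2 and Fbp1, which encode enzymes of the committed steps, G6pc and G6pc3, which encode glucose-6-phosphatases, Slc37a4, which encodes the glucose-6-phosphate transporter, and Foxo1, which encodes a transcription factor. The genes were listed by name, and every peak in one of them or within 5 kb of it was taken. All 8 were matched among 21887 protein-coding genes of the mouse build GRCm38. They held 7 of the 12333 peaks listed for ALKBH5-FLAG and 2 of the 3378 peaks listed for IgG.

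The peaks come from CUT&Tag, in which an antibody brings the transposase Tn5 to chromatin and the DNA cut around it is sequenced. There were 2 libraries, ALKBH5-FLAG and IgG, the non-specific antibody control, both from Hepa1-6, a mouse hepatoma line. The treatment protocol of both samples names overnight infection with an adenovirus for FLAG-tagged ALKBH5. The treatment tag of the IgG sample reads ALKBH6-FLAG instead, so whether both cultures carried the same virus cannot be told from the labels. No uninfected culture was analysed here. The series text speaks of primary hepatocytes where the sample labels say Hepa1-6. Transcript levels were not analysed here, so hepatocyte markers could not be checked. With 1 library per group there is no replicate check and no test, and each difference is one between these libraries.

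In hepatocytes, pyruvate carboxylase (Pcx) and phosphoenolpyruvate carboxykinase (Pck1 in the cytosol, Pck2 in mitochondria) carry pyruvate to phosphoenolpyruvate. Fructose-1,6-bisphosphatase (Fbp1) removes a phosphate later in the route, and glucose-6-phosphate is moved into the endoplasmic reticulum by the Slc37a4 product and split there by glucose-6-phosphatase. Glucagon raises Pck1 and G6pc through cAMP, and insulin lowers them by moving the FOXO1 protein out of the nucleus. ALKBH5 is known for removing N6-methyladenosine from RNA, and the series asked whether it binds DNA.

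ALKBH5-FLAG peaks were listed in or within 5 kb of 5 of the 8 genes, where 43.2% of all protein-coding genes had one. Pcx, Pck2 and Slc37a4 each had an ALKBH5-FLAG peak over an annotated transcription start. Foxo1 had 1 weak peak deep inside the gene, and the only peak near G6pc3 lay in a neighbouring gene. No ALKBH5-FLAG peak was listed in or within 5 kb of Pck1, G6pc or Fbp1. In the IgG list, Pcx had a peak at the same start, and G6pc had a peak that the ALKBH5-FLAG list lacked.

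In all, 5 of the 8 genes (62.5%) had an ALKBH5-FLAG peak and 2 of 8 (25%) an IgG peak. Over all protein-coding genes the same rule gave 43.2% for ALKBH5-FLAG and 12.6% for IgG. Since 1 gene makes up 12.5% of the set, the ALKBH5-FLAG count lay fewer than 2 genes above that background. An ALKBH5-FLAG peak with no IgG peak was found at 4 of 8 genes, against 32.5% of all protein-coding genes. Long genes hold more peaks. Among the 6 genes under 30 kb, 3 had an ALKBH5-FLAG peak and 1 an IgG peak, where all such genes gave 37.5% and 9.88%. The longer genes, Pcx and Foxo1, both had an ALKBH5-FLAG peak and 1 of them an IgG peak, where all genes of 30 kb or more gave 53.9% and 17.8%. Over an annotated start, 3 of 8 genes had an ALKBH5-FLAG peak and 1 of 8 an IgG peak. The shares of the 17492 protein-coding genes with a listed start were 24.1% and 2.29%.

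**Figure D1:**
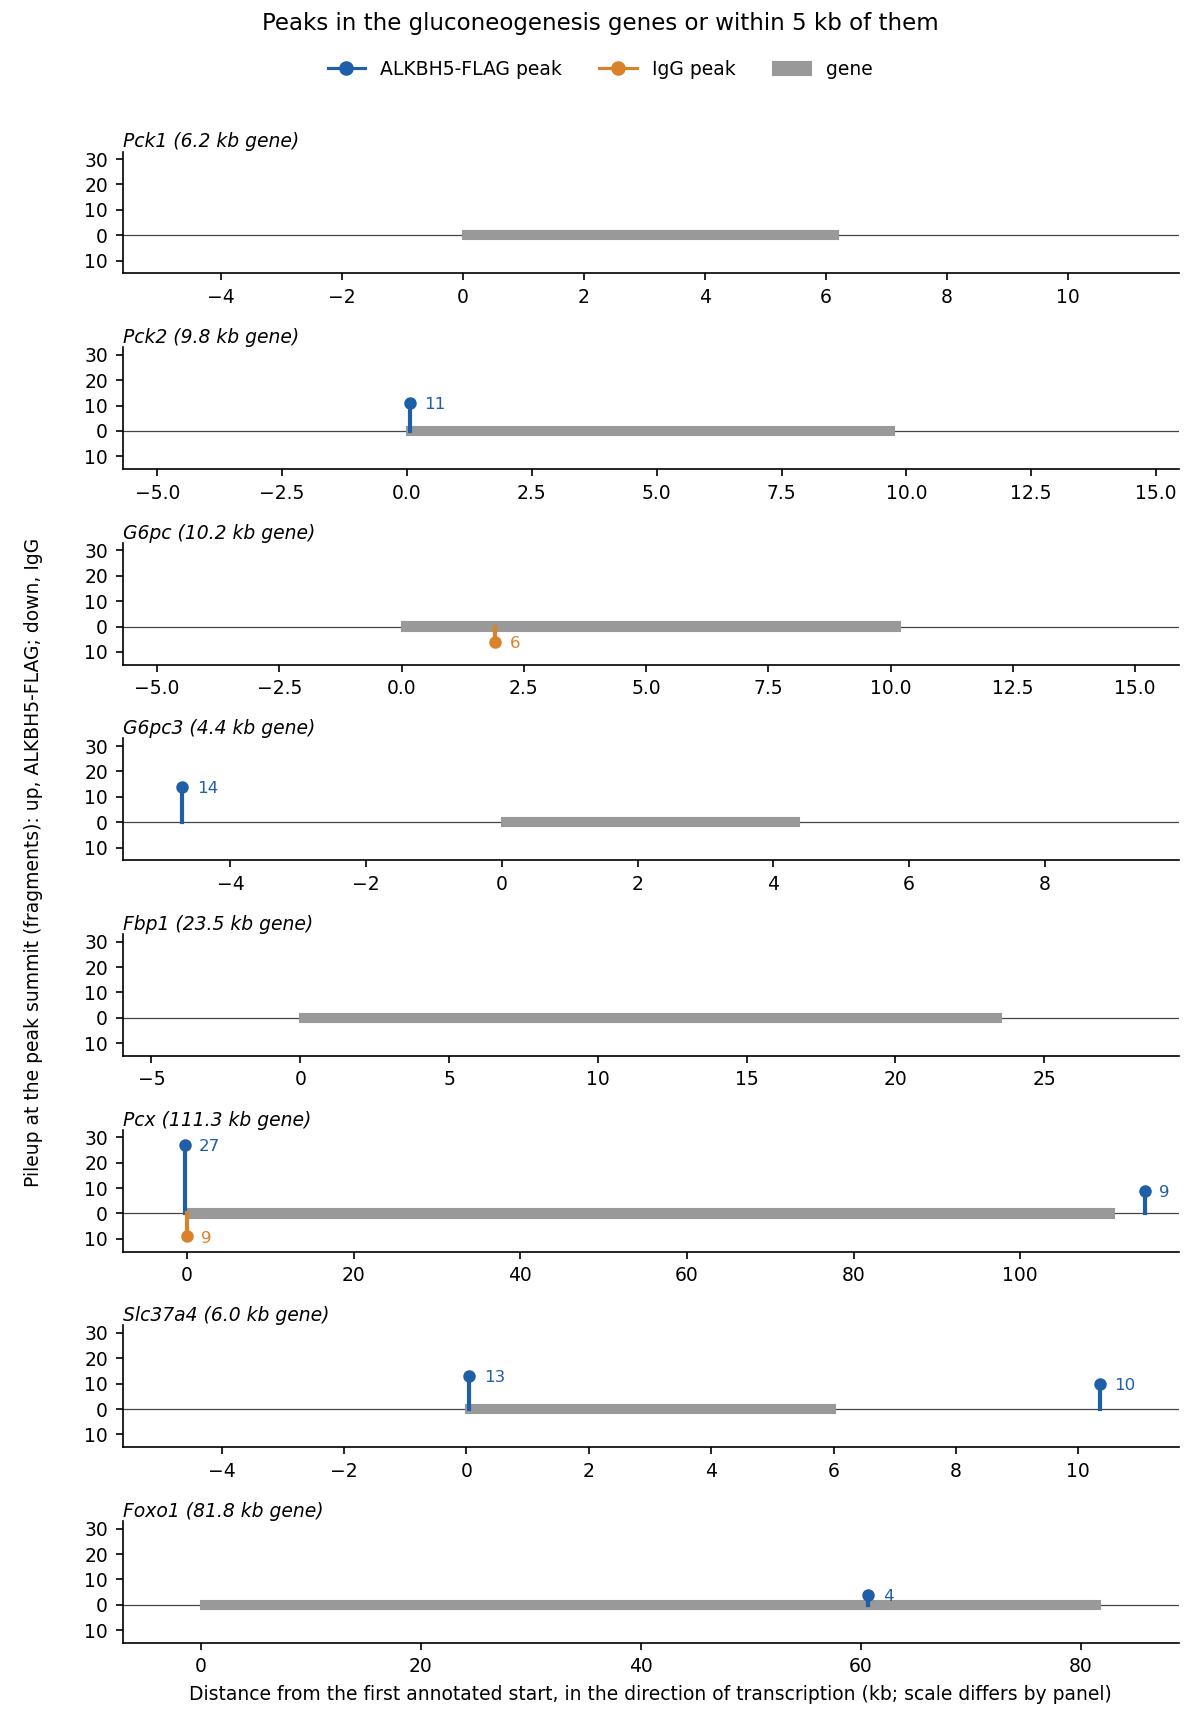
Position and height of each peak at the 8 genes, 1 panel a gene. The x axis is the distance of the summit from the first annotated start (kb, in the direction of transcription) and the y axis is the pileup in fragments, upward for ALKBH5-FLAG and downward for IgG. ALKBH5-FLAG peaks stand at the starts of Pck2, Pcx and Slc37a4, and the Pck1 and Fbp1 panels are empty.

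The promoter windows of 5 of the genes are printed here, 3 of them because an ALKBH5-FLAG peak covers the start. Those of Pck1 and G6pc, which had no ALKBH5-FLAG peak, were chosen because these genes are the usual readouts of hepatic gluconeogenesis. Each window runs from 250 bases before to 50 bases after a RefSeq start of GRCm38.p6, on the strand of the gene. Capitals mark letters of the motifs searched for on both strands, which are TGACGTCA (cAMP response element), TGACG (its short core), TGTTTAC (forkhead), TGTTTTG (insulin response sequence), CCAAT (NF-Y box), GGGCGG (GC box), TATAAA (the core of the TATA box), CACGTG (E-box) and TTGCGCAA (C/EBP). TGACG lies within TGACGTCA, and matches that touch or overlap appear as 1 run of capitals.
Pcx, chr19:4510222-4510521, plus strand: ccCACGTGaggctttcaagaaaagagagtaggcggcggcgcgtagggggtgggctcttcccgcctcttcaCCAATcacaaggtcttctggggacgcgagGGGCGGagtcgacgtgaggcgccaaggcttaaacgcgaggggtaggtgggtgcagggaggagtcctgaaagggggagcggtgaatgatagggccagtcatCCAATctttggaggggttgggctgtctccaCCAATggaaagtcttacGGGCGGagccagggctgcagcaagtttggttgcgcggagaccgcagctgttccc
Pck2, chr14:55540016-55540315, plus strand: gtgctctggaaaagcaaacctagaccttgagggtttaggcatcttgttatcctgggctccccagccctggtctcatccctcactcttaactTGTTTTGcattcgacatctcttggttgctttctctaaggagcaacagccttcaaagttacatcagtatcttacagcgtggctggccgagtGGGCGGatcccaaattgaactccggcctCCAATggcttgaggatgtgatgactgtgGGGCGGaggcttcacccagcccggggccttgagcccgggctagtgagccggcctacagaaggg
Slc37a4, first start, chr9:44396696-44396995, plus strand: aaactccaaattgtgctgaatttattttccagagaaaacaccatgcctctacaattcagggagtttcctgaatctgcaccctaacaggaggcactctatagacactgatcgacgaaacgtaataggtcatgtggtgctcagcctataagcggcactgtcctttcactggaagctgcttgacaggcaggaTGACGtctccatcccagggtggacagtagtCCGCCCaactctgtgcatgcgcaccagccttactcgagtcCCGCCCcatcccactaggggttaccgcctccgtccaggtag
Slc37a4, second start, chr9:44396849-44397148, plus strand: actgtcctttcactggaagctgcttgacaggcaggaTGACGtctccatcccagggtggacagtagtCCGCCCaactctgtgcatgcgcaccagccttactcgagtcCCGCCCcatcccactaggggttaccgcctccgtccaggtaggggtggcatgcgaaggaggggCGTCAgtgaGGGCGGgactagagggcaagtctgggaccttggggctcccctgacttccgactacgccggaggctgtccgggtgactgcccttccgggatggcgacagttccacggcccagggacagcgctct
Pck1, chr2:173152823-173153122, plus strand: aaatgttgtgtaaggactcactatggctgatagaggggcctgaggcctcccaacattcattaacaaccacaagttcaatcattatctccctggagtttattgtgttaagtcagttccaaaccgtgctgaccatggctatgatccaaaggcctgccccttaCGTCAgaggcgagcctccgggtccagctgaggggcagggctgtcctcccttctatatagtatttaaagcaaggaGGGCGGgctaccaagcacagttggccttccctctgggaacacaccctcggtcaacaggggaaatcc
G6pc, chr11:101367466-101367765, plus strand: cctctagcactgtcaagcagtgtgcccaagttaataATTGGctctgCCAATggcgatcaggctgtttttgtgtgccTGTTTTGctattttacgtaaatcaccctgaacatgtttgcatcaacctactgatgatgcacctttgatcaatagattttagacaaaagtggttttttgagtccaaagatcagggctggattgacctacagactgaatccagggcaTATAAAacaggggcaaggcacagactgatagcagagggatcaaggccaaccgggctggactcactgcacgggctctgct

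Pcx, the first enzyme of the route, had the strongest peak of the set. The gene spans 111 kb on chromosome 19 (4510472 to 4621752, plus strand). Its ALKBH5-FLAG peak at chr19:4509936-4510690 was 755 bp wide, stacked 27 fragments at the summit (the pileup) and had a fold enrichment of 10.8. Fold is the pileup over the local background with 1 added to each, so it is below the plain ratio, most of all where the background is low, and depends on depth. The fold exceeded that of 98.7% of ALKBH5-FLAG peaks. Pcx was also the only one of the 8 genes with peaks from both libraries. Of the 9446 protein-coding genes with an ALKBH5-FLAG peak, 7110 had no IgG peak. The IgG peak at chr19:4510239-4510588 stacked 9 fragments at a fold of 7.61, above 87.2% of IgG peaks, and lay wholly inside the ALKBH5-FLAG peak. It took up 46.4% of that peak, and the summits were 264 bp apart, the ALKBH5-FLAG summit 292 bp before the first start and the IgG summit 28 bp before it. Only 10.9% of the ALKBH5-FLAG peaks that cover a start had a summit as far as that or farther from it. The number of reads per library was not known, so the pileups of 27 and 9 cannot be scaled to each other, and neither can the folds of the libraries.

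An overlap with IgG was common among ALKBH5-FLAG peaks as tall as the one at Pcx. Of all ALKBH5-FLAG peaks, 14.9% shared at least 1 bp with an IgG peak. The share was 55.7% among the 235 ALKBH5-FLAG peaks with a pileup of 25 to 29 and 8.88% among the 9733 with a pileup of 4 to 14. The other 6 ALKBH5-FLAG peaks of the set lay in this lower range, and 0 of them overlapped an IgG peak. A second annotated start of Pcx, at 4594319, lay under no peak of either library.

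Pck2, which encodes the mitochondrial carboxykinase, had an ALKBH5-FLAG peak alone. The peak at chr14:55540232-55540504 covered the start of this 9.76 kb gene, with its summit 58 bp past the start. It was 273 bp wide and stacked 11 fragments, and its fold of 7.69 was higher than 86.8% of the list. The nearest IgG peak lay 10.4 kb from the gene. For Pck1, which encodes the cytosolic enzyme (chromosome 2, 173153073 to 173159274), the nearest ALKBH5-FLAG peak was 95.7 kb away. That peak, at chr2:173056841-173057378, stacked 17 fragments at a fold of 9.38. The nearest IgG peak, 95.8 kb away at chr2:173056852-173057269, lay inside it and had pileup 11 and fold 8.71. The paralogues thus differed, with an ALKBH5-FLAG peak over the start of Pck2 and none near Pck1. Of all protein-coding genes, 25.8% were farther from an ALKBH5-FLAG peak than Pck1, the median distance being 13.5 kb.

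Fbp1 and G6pc, whose enzymes remove phosphate in the last part of the route, also had no ALKBH5-FLAG peak. At Fbp1 (chromosome 13, 62864753 to 62888298, minus strand) the nearest ALKBH5-FLAG peak was 78.7 kb away, of pileup 6 and fold 5.74. The nearest IgG peak to Fbp1 was 2352 kb away, and only 3.55% of protein-coding genes were farther from one. At G6pc (chromosome 11, 101367716 to 101377903, plus strand) the nearest ALKBH5-FLAG peak was 39.3 kb away, of pileup 7 and fold 4.08. The IgG peak of G6pc, at chr11:101369527-101369730, lay inside the gene with its summit 1910 bp past the start, and stacked 6 fragments at a fold of 6.22. G6pc was thus the only gene of the set with an IgG peak and no ALKBH5-FLAG peak. Of the 21887 protein-coding genes, 2754 had an IgG peak and 9446 an ALKBH5-FLAG peak. All but 7110 of those 9446 had an IgG peak too. A list holds only what passed the peak caller, and its lowest pileups were 3 for ALKBH5-FLAG and 2 for IgG, so a gene with no listed peak is not shown to be without signal.

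G6pc3, which encodes the widely expressed glucose-6-phosphatase, had no peak in the gene. The ALKBH5-FLAG peak counted for it, at chr11:102184905-102185130, ended 4569 bp before the gene and lay inside the neighbouring gene Lsm12, with its summit 1279 bp from that gene's higher-coordinate end. This peak stacked 14 fragments at a fold of 6.58, above 72.0% of the list. The nearest IgG peak to G6pc3 was 90.8 kb away.

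Slc37a4, which encodes the transporter that feeds glucose-6-phosphate to the phosphatase, had 2 ALKBH5-FLAG peaks and no IgG peak. The first, at chr9:44396841-44397463, was 623 bp wide and covered 2 of the 3 annotated starts, with the summit 44 bp past the first start. Its pileup was 13 and its fold 7.07, above 80.2% of the list. The second, at chr9:44406975-44407474, began 4009 bp beyond the gene, and had pileup 10 and fold 6.47. It lay in the neighbouring gene Trappc4, with its summit 254 bp from that gene's higher-coordinate end and 420 bp before the start of Rps25, which encodes a ribosomal protein. The nearest IgG peak was 14.8 kb from Slc37a4.

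Foxo1, the regulator of the set, had the weakest ALKBH5-FLAG peak. The peak at chr3:52328886-52329267 had its summit 60675 bp past the start of this 81.8 kb gene, and stacked 4 fragments at a fold of 4.39. Only 15.1% of the list had a lower fold and 1.91% a lower pileup. No peak of either library covered the Foxo1 start, and the nearest IgG peak was 502 kb away.

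The distant peaks of the set belonged by position to other genes as well. Besides those near G6pc3 and Slc37a4, the second ALKBH5-FLAG peak counted for Pcx lay 3487 bp beyond the gene, at chr19:4625239-4625754, and had pileup 9 and fold 5.10. It covered a start of Rce1, which encodes a protease that processes prenylated proteins, with the summit 39 bp from that start. That Pcx peak also ran past the higher-coordinate end of Rce1 and into the next gene, Gm960. All 3 ALKBH5-FLAG peaks outside the 8 genes thus overlapped a neighbouring gene. Without them, 4 ALKBH5-FLAG peaks remained, at Pcx, Pck2, Slc37a4 and Foxo1.

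**Figure D2:**
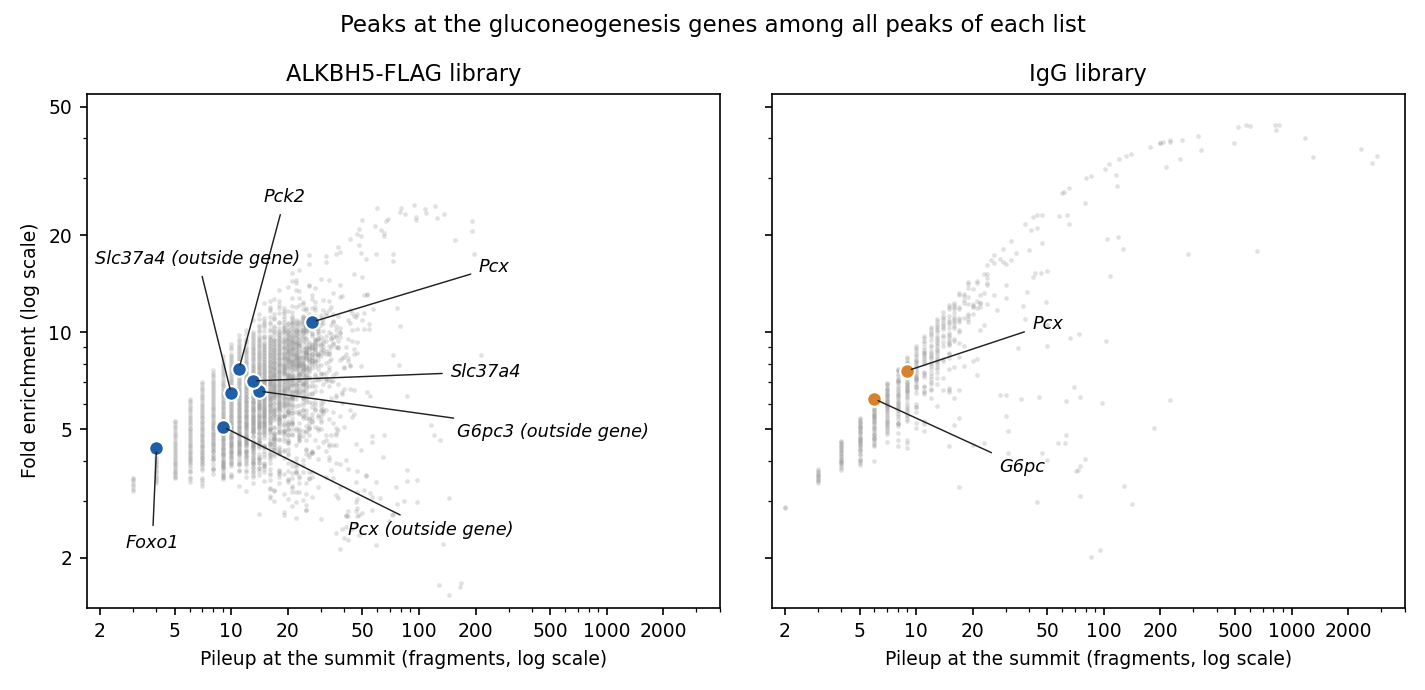
Pileup at the summit (fragments, log scale) against fold enrichment (log scale) of every peak in the ALKBH5-FLAG list (left) and the IgG list (right). Grey dots are peaks of the list and coloured points are the 7 ALKBH5-FLAG and 2 IgG peaks at the gluconeogenesis genes, with Pcx highest in both panels and Foxo1 lowest in the ALKBH5-FLAG panel.

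As a group, the 7 ALKBH5-FLAG peaks had a median pileup of 11 (range 4 to 27) and a median fold of 6.58 (4.39 to 10.8). The whole ALKBH5-FLAG list had medians of 9 and 5.63. The 2 IgG peaks had pileups of 6 and 9 and folds of 6.22 and 7.61, where the whole IgG list had medians of 5 and 4.79. The folds of the 3 ALKBH5-FLAG peaks at starts can be set beside the 4099 ALKBH5-FLAG peaks that cover any annotated start, whose median fold was 6.31 (interquartile range 5.34 to 7.44). Pck2 exceeded 79.1% of these, Slc37a4 68.2% and Pcx 99.1%. The median distance from summit to start among these peaks was 79 bp, so the Slc37a4 and Pck2 summits, at 44 and 58 bp, lay nearer than the median and the Pcx summit, at 292 bp, much farther.

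The starts differed in base composition, which the choice of genes did not use. CpG counts in the 300-base windows were 20 at the first start of Pcx, 11 and 18 at the 2 covered starts of Slc37a4 and 9 at Pck2. They were 6 at Pck1, 6 at Fbp1 and 4 at G6pc, which had no ALKBH5-FLAG peak. Foxo1 with 31 and G6pc3 with 20 were rich in CpG and yet had no peak over the start. The uncovered later starts of Slc37a4 and Pcx had 3 and 5. Over all 32851 windows, the 5200 with an ALKBH5-FLAG peak over the start had a median of 24 CpGs and a GC content of 63.3%, and the 27651 without one had 5 CpGs and 50.7%. Windows with an IgG peak over the start had like medians, 24 CpGs and 63.7%.

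Read by CpG class, Pck2 had a peak over its start in a class where few starts did. An ALKBH5-FLAG peak covered the start in 0.416% of windows with 4 CpGs or fewer, the class of G6pc, and in 3.57% of those with 5 to 9, the class of Pck1, Fbp1 and Pck2. The share was 24% for 10 to 19 CpGs, the class of both covered Slc37a4 starts. It was 43.5% for 20 to 29, the class of Pcx and G6pc3, and 38.4% for 30 or more, the class of Foxo1. These shares describe the libraries, windows of 1 gene can overlap, and whether CpG content bears on the peaks of the set was not tested.

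**Figure D3:**
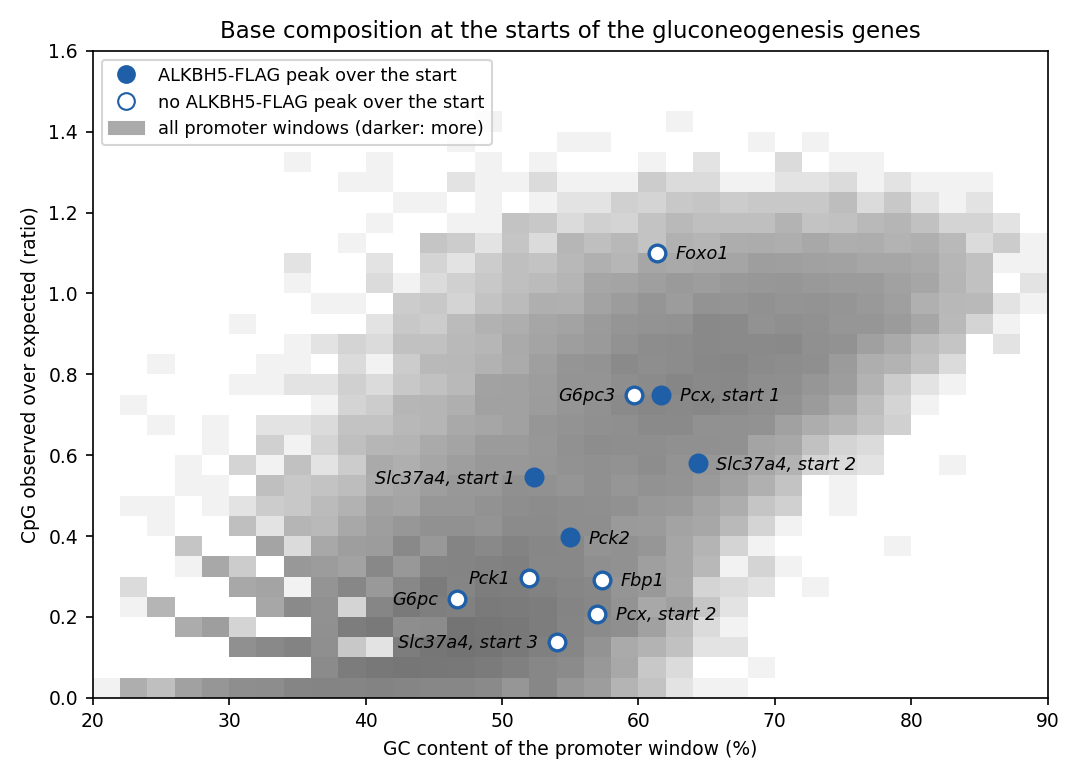
GC content (%) against the observed over expected CpG ratio of each promoter window of the 8 genes. Filled points have an ALKBH5-FLAG peak over the start, open points do not, and grey squares count all windows. Open points low on the CpG axis are Pck1, G6pc, Fbp1, the third start of Slc37a4 and the second start of Pcx. Foxo1 and G6pc3 lie high with open points, and Pck2 has a filled point at a ratio of 0.397.

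Motifs were found at genes with and without an ALKBH5-FLAG peak. A gene was counted if any of its windows held the motif, and Slc37a4 has 3 windows and Pcx 2. The counts of genes are therefore not on the same scale as the shares of windows beside them. The GC box was found in a window of 6 of the 8 genes, Pcx, Pck2, Slc37a4, Pck1, Fbp1 and Foxo1, and in 35.7% of all windows. It was in 74.9% of windows with an ALKBH5-FLAG peak over the start and 28.3% of those without. The core TGACG, held by 20.8% of all windows, was found at Slc37a4, 61 to 57 bases before the first start and, on the opposite strand, 82 to 78 bases before the second, and at Pck1, 90 to 86 bases before the start on the opposite strand. The full cAMP response element was in 1.79% of windows, the forkhead motif in 3.65% and the C/EBP motif in 0.183%. In these exact letters, 0 of the 8 genes had any of them in a window. Variant spellings were not searched for, so a gene is not shown to lack such an element. In the Pck1 window the core lies in TTACGTCA, which differs from TGACGTCA in its second letter. TGTTTTG, in 6.28% of windows, was found at G6pc and Pck2. CCAAT was found at Pcx, Pck2, G6pc, Fbp1 and Foxo1, and in 37.4% of all windows. TATAAA was found at G6pc and at the third start of Slc37a4 (13.6% of all windows), and CACGTG at Pcx and G6pc3 (7.15%). These matches describe letters in the windows and do not show that a factor binds there.

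Beyond the 8 genes, 32 other genes of the pathway were counted by role. An ALKBH5-FLAG peak was found in or within 5 kb of 21 (65.6%) and an IgG peak at 6 (18.8%), where all protein-coding genes gave 43.2% and 12.6%. With peaks overlapping the gene only, the counts were 15 and 5. Of all protein-coding genes, 63.9% had no overlapping ALKBH5-FLAG peak and 91.5% no overlapping IgG peak. All 7 genes of substrate entry and the malate-aspartate shuttle had an ALKBH5-FLAG peak, and 3 had an IgG peak. Of the 7 reversible enzymes shared with glycolysis, 5 had an ALKBH5-FLAG peak and 1 an IgG peak. Of the 11 regulators, the counts were 5 and 2. Ppargc1a, Cebpa, Cebpb, Hnf4a, Klf15 and Sirt1 were those with no ALKBH5-FLAG peak. For the 4 enzymes of the opposing steps they were 2 and 0, and for the 3 paralogues and glucose export genes 2 and 0. The only ALKBH5-FLAG peak counted for each of Ldha, Gpt, Tpi1, Gpi1, G6pc2 and Foxo3 lay outside the gene.

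The highest ALKBH5-FLAG folds among these genes were at Pfkl, liver phosphofructokinase (9.60), Creb1, which encodes the cAMP-responsive factor CREB (8.33), and Pgam1, phosphoglycerate mutase (7.58). Each of these peaks covered a start of its gene. Of the 21887 protein-coding genes, 9446 had an ALKBH5-FLAG peak, and all but 7110 of these had an IgG peak too. Creb1 was among 5 of the 32 genes with peaks from both libraries, and its IgG fold was 8.58. The others were Got1, cytosolic aspartate aminotransferase (ALKBH5-FLAG fold 7.19, IgG fold 5.47), Mdh1, cytosolic malate dehydrogenase (6.98 and 6.50), Gpt2, alanine aminotransferase (6.92 and 10.4), and Gpi1, glucose-6-phosphate isomerase (5.38 and 4.64). The peaks with these folds covered a start at Got1 and Mdh1 but not at Gpt2 or Gpi1, and those of Gpi1 lay outside the gene. At Gpt2 the other of its 2 ALKBH5-FLAG peaks covered a start, and no IgG peak did. Ppargc1a, which encodes the coactivator PGC-1alpha, had an IgG peak (fold 5.43) and no ALKBH5-FLAG peak, as G6pc did.

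**Figure D4:**
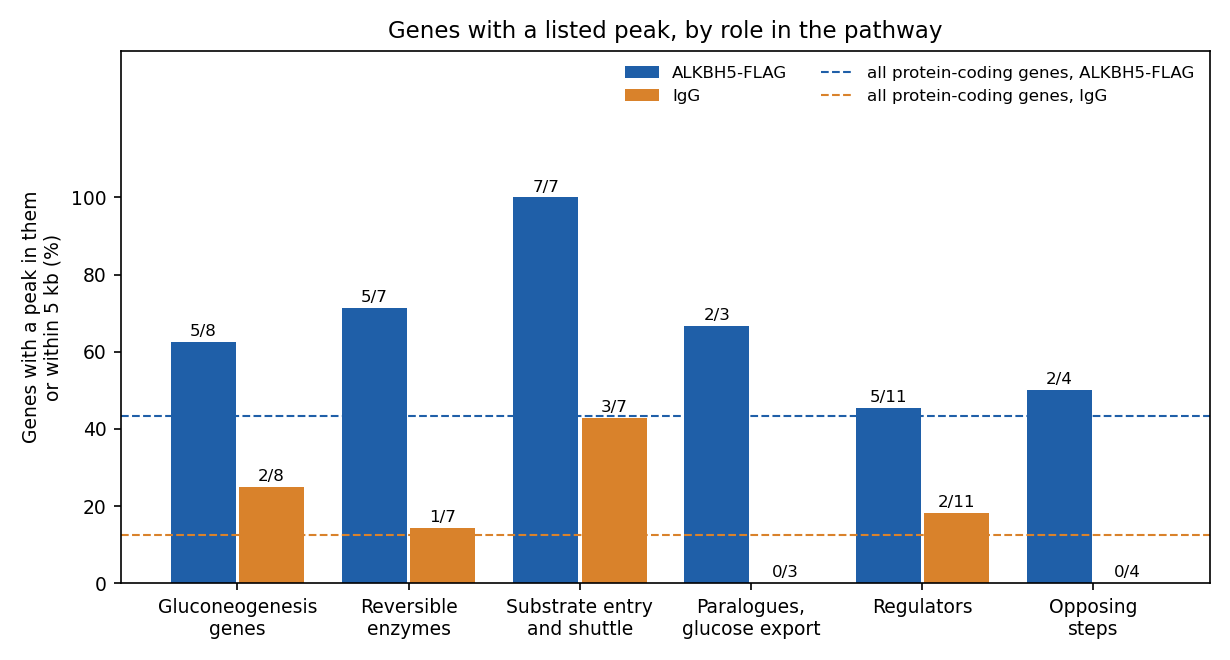
Share of genes (%) with a peak in them or within 5 kb, by role, with ALKBH5-FLAG bars left of IgG bars and the number of genes above each bar. Dashed lines give the share of all protein-coding genes, 43.2% for ALKBH5-FLAG and 12.6% for IgG. The 8 gluconeogenesis genes stand at 62.5% and 25%, and the substrate entry genes are highest in both libraries.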

How the data were processed

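The deposited tables list the peaks of 1 CUT&Tag library each in the MACS2 layout, per the file headers. Tools in the submitters' processing notes were R 3.4.1, MACS2, SAMtools 1.3.1 and Bowtie2 2.2.9, with the build GRCm38 and no settings. The authors' pileup is a coverage signal in fragments, and the authors' fold enrichment is a ratio to local background with 1 added to pileup and background. So read, 98.2% of ALKBH5-FLAG backgrounds were whole multiples of 0.02 (within 0.01 of a step), against 10.6% for the plain ratio. The deposited −log10 p-value and q-value columns had lost their headers and were known by their place. No source used here says whether IgG served as a control for the ALKBH5-FLAG list, and depth is unknown.

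Peaks were assigned with Python 3.11.15 and pandas 2.3.3 to RefSeq genes (GRCm38.p6) by 1 bp or more of overlap with the gene extended by 5 kb on each side. A peak near several genes counted for each. Overlap counting was tested on simulated data. The promoter table gave a start for 17492 of 21887 protein-coding genes, the 8 genes included. The genes, lists and motifs were chosen with earlier results of these data known. All 8 genes are named, and other pathway genes where they held the 3 highest ALKBH5-FLAG folds or peaks in both lists. Regulators without ALKBH5-FLAG peaks, Ppargc1a, the neighbouring genes and the pathway genes with a peak only outside them were named after their values were seen. Alternatives changed the window, threshold and overlap rule.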

Additional observations from a re-analysis of the deposited data

How the results depend on the processing

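Of 54 values recomputed under other settings, 46 stayed within 1.5 times the reported one. With peaks overlapping the gene only, or within 1 kb of it, the 8 genes held 4 ALKBH5-FLAG peaks in place of 7. The other 3 lay farther out and overlapped neighbouring genes. Within 1 kb of a gene end, 3 genes had an ALKBH5-FLAG peak and 1 an IgG peak, in place of 5 and 2, since the peaks inside Foxo1 and G6pc and that near G6pc3 lie farther in or out. With −log10 q held to at least 5, 13 of the other pathway genes had an ALKBH5-FLAG peak and 3 an IgG peak, in place of 21 and 6. For the counts at gene ends and at this threshold, the shares of all protein-coding genes were not counted. The shares of 43.2% and 12.6% hold for the main rule and cannot be set beside them. The overlap of the Pcx peaks was lost, giving 0 in place of 1, both when 50% of each peak had to be shared and when summits had to lie within 200 bp. No paired analysis was possible because each group has 1 library. The depth of the libraries is unknown, so how many genes lack a peak through depth is not known.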
